A study of Mus musculus with 11 samples.

Results

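The genes described here are 9 Kruppel-like factor (KLF) transcription factors of the mouse, Klf2, Klf3, Klf4, Klf6, Klf7, Klf9, Klf10, Klf11 and Klf13, chosen by gene symbol among the 51912 genes of a raw count table from bone marrow cells. Each symbol matched 1 Ensembl gene, and all 9 passed the filter on low counts that left 15703 genes for testing. The cells were C57BL/6 marrow, transduced with retroviruses and sorted as lineage-negative cells carrying both fluorescent markers, and all groups were then held for 48 h with 4-hydroxytamoxifen, the drug that activates an ERT2-Cre recombinase and with it a Cre-inducible second vector. CSF3R-only cells (n = 4) carried a constitutive vector for an activating membrane-proximal mutant of CSF3R, the G-CSF receptor, and an empty inducible vector. CSF3R-first cells (n = 3) carried the same constitutive CSF3R vector and an inducible vector for a C-terminal in-frame mutant of CEBPA, a transcription factor needed for granulocytes to form. CEBPA-first cells (n = 4) carried constitutive mutant CEBPA and inducible mutant CSF3R, so both double-mutant groups held the same mutant genes and differed in which was expressed first. The model is forced viral expression in cultured cells, without a group free of mutant CSF3R among these samples. The labels do not say that the replicates, lettered A to D, came from separate animals or cultures, so p-values measure only the spread between these samples.

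KLF proteins bind GC-rich and CACCC-type DNA through a conserved set of zinc fingers at their C-terminus, and differ in the N-terminal part that recruits partners. Klf2, Klf4, Klf6 and Klf7 can activate transcription, Klf3 recruits the corepressor CtBP, and Klf9, Klf10, Klf11 and Klf13 recruit the corepressor SIN3A. In the myeloid lineage Klf4 is known as a driver of monocyte differentiation, Klf2 as a factor that restrains the activation of monocytes and macrophages, and Klf6 as a factor that promotes the inflammatory activation of macrophages.

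The upstream sequences of the gene with the largest fall, Klf2, and of the 2 genes with higher levels by the adjusted p, Klf4 and Klf9, are shown because these 3 genes mark the extremes of the results. Each is the 250 bases before the gene's start in RefSeq (build GRCm38.p6), read 5′ to 3′ on the gene's strand. Capitals mark matches, on either strand, to letters searched for MEF2 (CTA, any 4 bases, TAG), STAT (TTCNNNGAA) and AP-1 (TGANTCA) factors, chosen with the expression values known. The searched windows also held the 50 bases after the start.
Klf2, chr8:72318812-72319061, plus strand: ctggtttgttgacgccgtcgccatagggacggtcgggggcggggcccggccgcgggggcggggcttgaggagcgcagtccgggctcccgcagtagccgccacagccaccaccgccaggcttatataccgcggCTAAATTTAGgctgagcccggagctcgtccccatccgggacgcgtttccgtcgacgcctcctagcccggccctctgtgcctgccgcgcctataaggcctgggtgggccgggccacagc
Klf4, chr4:55532476-55532725, minus strand: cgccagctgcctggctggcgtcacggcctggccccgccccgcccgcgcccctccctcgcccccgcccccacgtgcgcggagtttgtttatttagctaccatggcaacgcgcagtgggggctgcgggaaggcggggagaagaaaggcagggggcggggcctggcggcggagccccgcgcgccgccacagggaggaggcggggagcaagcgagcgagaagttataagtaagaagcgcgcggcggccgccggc
Klf9, chr19:23140976-23141225, plus strand: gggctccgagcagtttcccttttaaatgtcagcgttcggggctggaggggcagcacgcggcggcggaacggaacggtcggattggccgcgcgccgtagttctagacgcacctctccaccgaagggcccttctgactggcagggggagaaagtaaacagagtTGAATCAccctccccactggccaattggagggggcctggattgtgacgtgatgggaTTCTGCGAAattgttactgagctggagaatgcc

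Of the 9 genes, 8 had a RefSeq window, and Klf10 is named only. Klf2 was the 1 member of the 8 with a MEF2 match, 118 bases before its start, and 3.69% of all 32851 windows of this length held one. Klf9 alone among the 8 held an AP-1 match, 89 bases before the start (7.81% of all windows), and a STAT match, 33 bases before it (8.3% of all windows). No window of the 8 held the letters searched for C/EBP (TTNNGNAA, in 40.7% of all windows) or PU.1 (GAGGAA, in 28.3%). The GC box GGGCGG, found in 35.7% of all windows, matched 6 times for Klf3, 4 times each for Klf4 and Klf11, 3 times for Klf13, 2 times for Klf2 and once each for Klf6 and Klf7, and Klf9 was the member without one. CACCC, found in 57.5% of all windows, matched in the windows of Klf2, Klf3, Klf7, Klf9 and Klf13, and in Klf9 it overlapped the AP-1 match. All 8 windows were richer in G and C (58.3% to 77.7%) than the median window (52.7%). These matches describe letters and are not binding sites.

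Libraries held 47905747 to 72268346 counts, so that 3 counts correspond to 0.0383 to 0.0648 CPM (counts per 1000000 counts of the library), and every member had at least 354 counts in every library. Levels below are CPM after TMM scaling, given as mean ± SD. CSF3R-first replicate A stood apart from the other libraries of its group: the chi-square per degree of freedom over genes was 104 against replicate B and 79.8 against C, and 23.7 between B and C, while pairs within the other groups gave 9.5 to 41.6. Fold changes and places of the members in CSF3R-first are therefore given with and without it, as are the summed level per kilobase and those pathway counts that are printed for that group. Counts of the other lists in CSF3R-first are not reported here. Taking the groups in the order CSF3R-only, CSF3R-first, CEBPA-first, which is kept for every set of 3 values below, mouse Csf3r was at 846 ± 94.9, 516 ± 118 and 154 ± 16.1 CPM, and Cebpa at 87.2 ± 6.98, 131 ± 10.4 and 167 ± 6.12; whether transgene reads enter these counts was not tested. Replicates of each group differed by more than sampling noise, and none was counted as a duplicate.

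CEBPA-first cells were compared with CSF3R-only cells to see how the KLF genes stood when mutant CEBPA preceded mutant CSF3R. These groups differ in mutant CEBPA and also in whether mutant CSF3R was constitutive or induced, which cannot be told apart here. Klf2, Klf3, Klf6, Klf7 and Klf11 fell and Klf9 rose past the threshold of an adjusted p under 0.05 and a log2 fold change of at least 1 in size. These were 6 of 9 members, where 27.0% of all tested genes passed. The 5 members that fell stood against 19.0% of all genes, and the 1 that rose against 8.07%. Klf10 and Klf13 were also lower, and Klf4 higher, by the adjusted p alone, which made 9 of 9 members against 72.0% of all genes: 2 higher, against 35.4%, and 7 lower, against 36.6%. The CPM ranges of these groups did not overlap for any of the 9, as for 68.7% of all genes. The median log2 fold change of the members was -1.15, against -0.00446 over all tested genes.

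**Figure D1:**
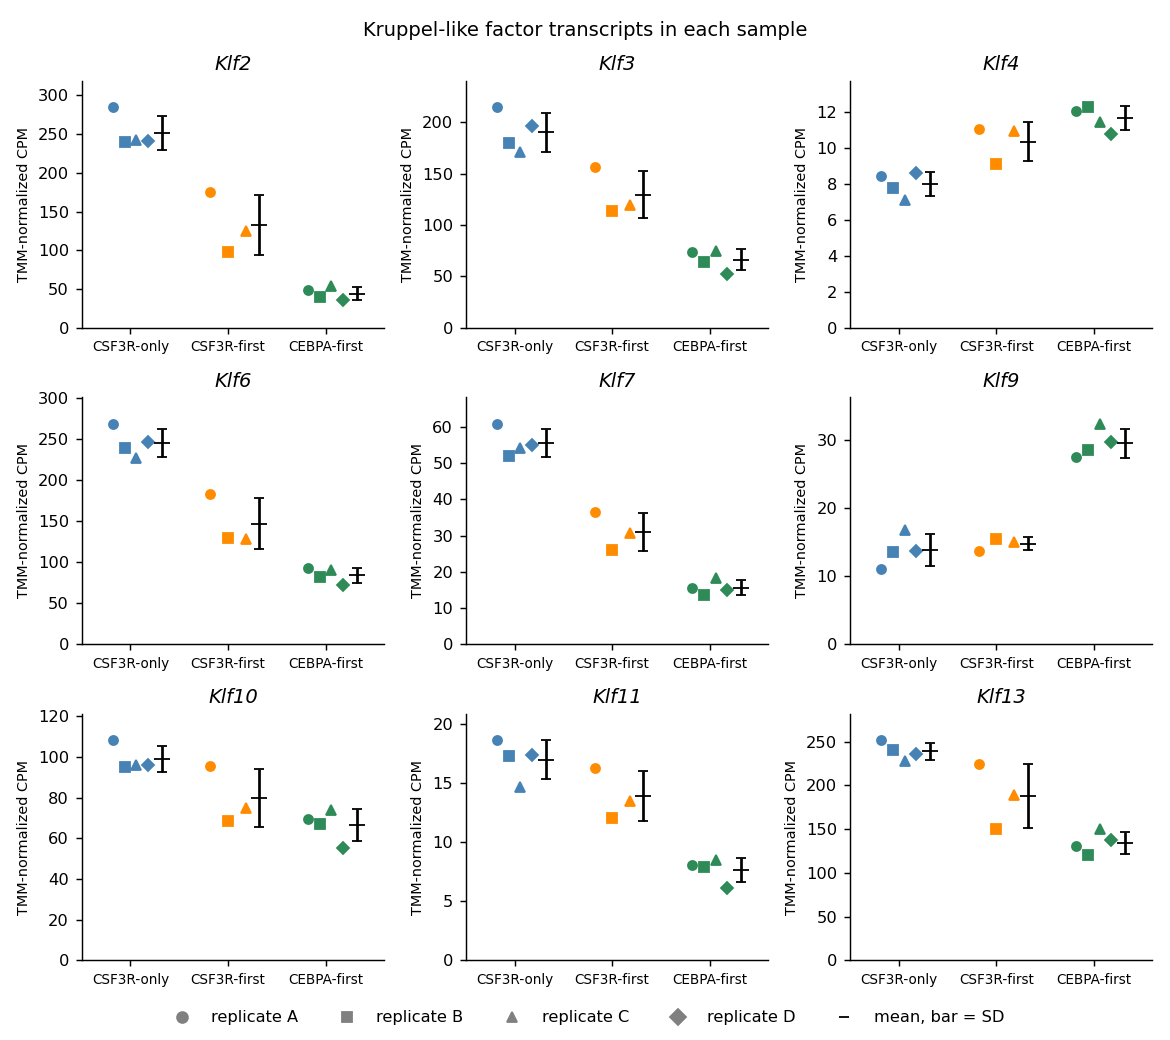
TMM-normalized CPM (vertical axes, from 0) of each of the 9 genes in every sample of the 3 groups; symbols are replicates, and the black mark with its bar is the mean ± SD. Klf2 runs from 239 to 284 CPM in CSF3R-only and from 35.3 to 53.4 in CEBPA-first, while Klf9 runs from 11.1 to 16.8 and from 27.5 to 32.4.

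Among the factors that can activate transcription, Klf2 showed the largest difference. Klf2 (chr8:72319033-72321656, plus strand, ENSMUSG00000055148, GRCm38), which in lymphocytes maintains quiescence and migration, was at 284, 239, 242 and 241 CPM in CSF3R-only replicates A to D, at 175, 97.3 and 125 in the CSF3R-first replicates A to C, and at 48.1, 39.1, 53.4 and 35.3 in the CEBPA-first replicates A to D. All 3 groups were separate, with CSF3R-only highest and CEBPA-first lowest. The means were 252 ± 21.7, 132 ± 39.2 and 44.0 ± 8.28, and CEBPA-first was 5.73-fold lower than CSF3R-only (log2 fold change -2.52, SE 0.17, edgeR adjusted p = 5.6e-08). A change of this size or larger, in either direction, was seen in 6.46% of all tested genes.

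Klf6 (chr13:5861482-5870394, plus strand, ENSMUSG00000000078), an early response gene and coactivator of inflammatory programmes, was at 268, 239, 227 and 246 CPM in CSF3R-only, then 182, 129 and 128 in the CSF3R-first samples, and 92.4, 81.2, 90.0 and 72.3 in the CEBPA-first samples. Its groups too were separate and in the same order as those of Klf2. CEBPA-first was 2.92-fold lower than CSF3R-only (log2 fold change -1.54, SE 0.12, edgeR adjusted p = 1.3e-07).

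Klf7 (chr1:64029447-64122282, minus strand, ENSMUSG00000025959), best known from the nervous system, was at 60.9, 52.0, 54.2 and 55.0 CPM in CSF3R-only, then 36.5, 26.0 and 30.6 in the CSF3R-first samples, and 15.4, 13.5, 18.4 and 14.8 in the CEBPA-first samples. No sample of one group reached the range of another. CEBPA-first was 3.58-fold lower than CSF3R-only (log2 fold change -1.84, SE 0.11, edgeR adjusted p = 2.2e-08). In the annotation 39.4% of the exon bases of Klf7 lay in other genes (Gm13748 and Gm26649), and 41.9% of its longest transcript was near-identical to Gm26649. Gm26649 had 0 counts in all samples and Gm13748 had 3 to 15, so the counts of Klf7 depend on how shared reads were assigned, which the sources used here do not give.

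Klf4 (chr4:55527143-55532466, minus strand, ENSMUSG00000003032), the monocyte factor that also serves in reprogramming to pluripotency, was low throughout, at 8.42, 7.77, 7.14 and 8.60 CPM in CSF3R-only, then 11.04, 9.10 and 10.9 in the CSF3R-first samples, and 12.1, 12.3, 11.5 and 10.8 in the CEBPA-first samples. Every double-mutant sample was above every CSF3R-only sample, and the double-mutant groups overlapped. CEBPA-first was 1.46-fold higher than CSF3R-only (log2 fold change 0.54, SE 0.09, edgeR adjusted p = 0.00014), in the direction opposite to Klf2.

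Klf3 (chr5:64803388-64832901, plus strand, ENSMUSG00000029178), the CtBP-dependent repressor that opposes Klf1 on erythroid genes, was at 215, 180, 171 and 196 CPM in CSF3R-only, then 156, 113 and 120 in the CSF3R-first samples, and 74.1, 64.0, 74.6 and 52.6 in the CEBPA-first samples. The 3 groups did not overlap, and replicate A was the highest of CSF3R-only and of CSF3R-first. CEBPA-first was 2.87-fold lower than CSF3R-only (log2 fold change -1.52, SE 0.13, edgeR adjusted p = 3.2e-07). The gene Gm20033 overlapped 3.59% of the Klf3 exon bases and was at 0.813 ± 0.0739, 0.638 ± 0.123 and 0.308 ± 0.120 CPM.

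Of the SIN3A-recruiting members, 1 rose and 3 were lower. Klf9 (chr19:23141226-23168134, plus strand, ENSMUSG00000033863), a target of glucocorticoid and thyroid hormone receptors, was at 11.1, 13.6, 16.8 and 13.7 CPM in CSF3R-only, then 13.8, 15.5 and 15.1 in the CSF3R-first samples, and 27.5, 28.5, 32.4 and 29.7 in the CEBPA-first samples. The 3 CSF3R-first samples lay within the CSF3R-only range, and all CEBPA-first samples lay above both groups. CEBPA-first was 2.14-fold higher than CSF3R-only (log2 fold change 1.10, SE 0.11, edgeR adjusted p = 1.2e-06).

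Klf11 (chr12:24651274-24662789, plus strand, ENSMUSG00000020653), a gene induced early by TGF-beta, was at 18.6, 17.2, 14.7 and 17.4 CPM in CSF3R-only, then 16.2, 12.1 and 13.5 in the CSF3R-first samples, and 8.04, 7.89, 8.51 and 6.15 in the CEBPA-first samples. CEBPA-first lay below both other groups, which overlapped. It was 2.22-fold lower than CSF3R-only (log2 fold change -1.15, SE 0.12, edgeR adjusted p = 2.2e-06).

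Klf10 (chr15:38291463-38300706, minus strand, ENSMUSG00000037465), the closest relative of Klf11 and likewise induced early by TGF-beta, was at 108, 94.96, 96.0 and 96.0 CPM in CSF3R-only, then 95.7, 68.5 and 74.6 in the CSF3R-first samples, and 69.6, 67.3, 74.0 and 55.2 in the CEBPA-first samples. CSF3R-first overlapped both other groups, since its replicate A reached CSF3R-only and its replicate B fell inside the CEBPA-first range. CEBPA-first was 1.49-fold lower than CSF3R-only (log2 fold change -0.57, SE 0.11, edgeR adjusted p = 0.00034).

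Klf13 (chr7:63886351-63938915, minus strand, ENSMUSG00000052040), a regulator of the chemokine gene Ccl5 in T cells, was at 252, 240, 228 and 236 CPM in CSF3R-only, then 224, 150 and 189 in the CSF3R-first samples, and 130, 120, 150 and 137 in the CEBPA-first samples. CSF3R-first replicate B, the lowest of its group, lay just above the highest CEBPA-first sample (150.1 against 149.8 CPM). CEBPA-first was 1.78-fold lower than CSF3R-only (log2 fold change -0.83, SE 0.11, edgeR adjusted p = 1.1e-05).

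CSF3R-first cells were compared with CSF3R-only cells, which share the constitutive CSF3R vector and differ by the induced mutant CEBPA. None of the 9 members passed the fold threshold (0 by edgeR and 0 by DESeq2), where 6.65% of all genes did. These fits did not treat the replicate letters as pairs, which the labels do not settle. With the letters as a block, 1 member passed, Klf2 (log2 fold change -1.02, edgeR adjusted p = 0.000109), and 1218 of all genes did. By the adjusted p alone 7 members differed, against 42.7% of all genes, and 8 had an unadjusted p under 0.05, as did 50.5% of all genes. The groups did not overlap for 6 members, against 42.1% of all genes. The median log2 fold change of the members was -0.35, against -0.02 over all tested genes.

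Klf2, Klf7, Klf6 and Klf3 were lower in CSF3R-first than in CSF3R-only, and Klf4 was higher. Klf2 differed most, 1.90-fold (log2 fold change -0.93, 95% interval -1.34 to -0.51, edgeR adjusted p = 0.0016). Klf7 was 1.79-fold lower (-0.84, interval -1.12 to -0.56, adjusted p = 0.00025), Klf6 1.67-fold lower (-0.74, interval -1.03 to -0.45, adjusted p = 0.00071) and Klf3 1.47-fold lower (-0.55, interval -0.87 to -0.24, adjusted p = 0.0062). Klf4 was 1.30-fold higher (0.38, interval 0.15 to 0.61, adjusted p = 0.0092). None of these 5 genes overlapped between the groups.

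Among the SIN3A-recruiting members, Klf13 and Klf10 passed the adjusted p. Klf13 was 1.27-fold lower (log2 fold change -0.35, edgeR adjusted p = 0.026) and Klf10 1.24-fold lower (-0.31, adjusted p = 0.046). Without CSF3R-first replicate B the adjusted p rose to 0.117 for Klf13 and 0.207 for Klf10, without replicate C to 0.0658 and 0.167, and without CSF3R-only replicate A to 0.0597 and 0.112. Without CSF3R-first replicate A, the library that stood apart, Klf13 came to -0.49 (adjusted p = 0.00141) and Klf10 to -0.46 (adjusted p = 0.00248). Klf11 had a log2 fold change of -0.29 (interval -0.58 to 0.01, adjusted p = 0.091) and Klf9 one of 0.10 (interval -0.17 to 0.37, adjusted p = 0.53), so that for Klf9 a rise or fall larger than these bounds was not seen.

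Without CSF3R-first replicate A, Klf2 passed the fold threshold (log2 fold change -1.18, edgeR adjusted p = 7.03e-05), and the count became 1 of 9, where 8.90% of all genes passed. Klf6 and Klf7 then came to -0.93 and -0.97, Klf3 to -0.71 (adjusted p = 0.000653) and Klf4 to 0.33 (adjusted p = 0.0236). Klf11 passed the adjusted p (-0.41, adjusted p = 0.0191), which made 8 of 9 members against 46.5% of all genes. Klf9 came to 0.15 (adjusted p = 0.377).

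CEBPA-first and CSF3R-first cells carry the same mutant genes in the opposite order of expression. Klf2 (log2 fold change -1.59, SE 0.18, edgeR adjusted p = 2e-05) and Klf7 (-1.001, SE 0.12, adjusted p = 3.5e-05) passed the threshold, both lower in CEBPA-first, which is 2 of 9 members where 12.8% of all genes passed, and 10.3% were lower past it. By the adjusted p alone 7 members differed, against 48.3% of all genes, and the same number did not overlap between the groups, against 52.2%. The median log2 fold change of the members was -0.80, against 0.00 over all tested genes.

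Klf9 and Klf3 lay next to the fold threshold. Klf9 was 1.997-fold higher in CEBPA-first (log2 fold change 0.998, SE 0.12, edgeR adjusted p = 3.3e-05), with no overlap between the groups. Klf3 was 1.96-fold lower (-0.97, SE 0.13, adjusted p = 0.00012). Klf7 itself passed with a log2 fold change of -1.001, and DESeq2 passed Klf2 and Klf9 in place of Klf2 and Klf7.

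Klf11 (log2 fold change -0.87, edgeR adjusted p = 0.00022), Klf6 (-0.80, adjusted p = 0.00025) and Klf13 (-0.48, adjusted p = 0.0039) were lower in CEBPA-first than in CSF3R-first. Klf10 (-0.26, interval -0.53 to 0.01, adjusted p = 0.081) and Klf4 (0.17, interval -0.06 to 0.40, adjusted p = 0.18) overlapped between these groups and did not pass. Without CSF3R-first replicate A the count past the threshold was 1 (Klf2, -1.34), where 10.7% of all genes passed. The other members then had -0.86 (Klf7), -0.81 (Klf3), -0.74 (Klf11), -0.61 (Klf6), -0.33 (Klf13), -0.10 (Klf10), 0.22 (Klf4) and 0.95 (Klf9). The count was also 1 without CEBPA-first replicate D (12.4% of all genes), and 4 (Klf2, Klf3, Klf7 and Klf9) without CSF3R-first replicate B (13.6%) or without replicate C (12.6%). The 3 comparisons share their samples, and their values for 1 gene are not independent.

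**Figure D2:**
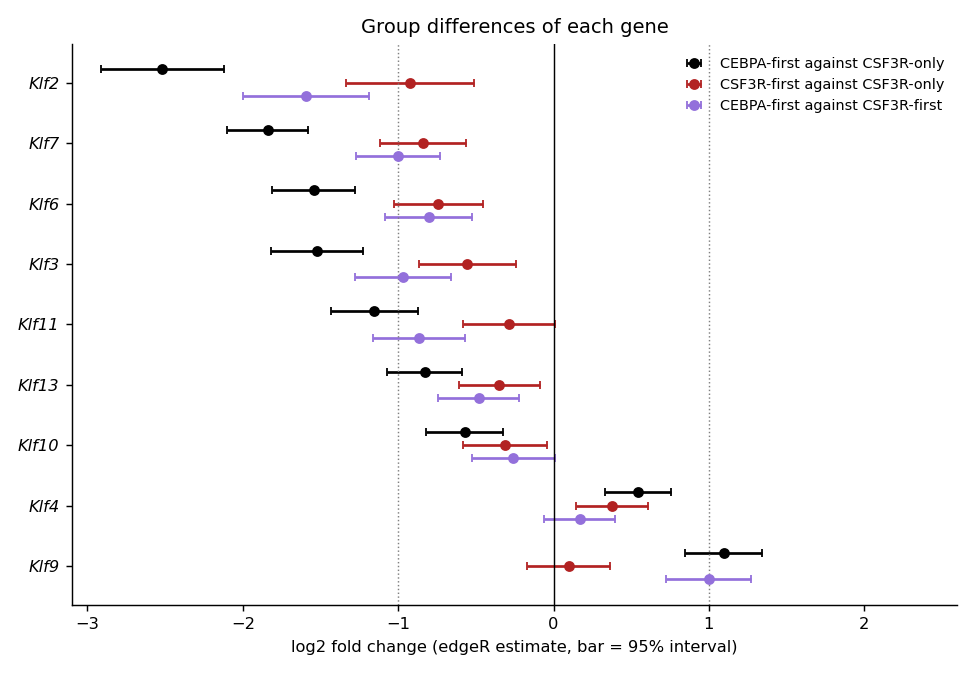
Log2 fold change (horizontal axis) of each gene in the 3 comparisons, as edgeR estimates with 95% intervals (bars); dotted lines mark a log2 fold change of 1 in size. Klf2 reaches -2.52 in CEBPA-first against CSF3R-only, and Klf4 and Klf9 are the genes right of 0.

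The place of CSF3R-first between the other groups differed among the genes. On the log2 CPM scale, with the CSF3R-only mean set to 0 and the CEBPA-first mean to 1, CSF3R-first lay at 0.101 for Klf9, 0.253 for Klf11, 0.369 for Klf3, 0.381 for Klf2, 0.440 for Klf13, 0.461 for Klf7, 0.490 for Klf6, 0.562 for Klf10 and 0.684 for Klf4. Over the 11314 genes that differed between CSF3R-only and CEBPA-first by the adjusted p, the median place was 0.468, with an interquartile range of 0.337 to 0.607. Klf9 and Klf11 lay below that range, nearer CSF3R-only, and Klf4 lay above it.

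Single samples spread widely on this scale. Klf9 stayed near CSF3R-only in all 3 samples (0.00976, 0.164 and 0.128 in A, B and C). Klf10 went from 0.0765 in A to 0.913 in B, and Klf13 from 0.112 in A to 0.804 in B. Replicate A lay nearest to CSF3R-only for 8 genes, and for Klf4 it lay farthest from it (0.861, against 0.351 in B and 0.840 in C). Without replicate A the places were 0.146 for Klf9, 0.353 for Klf11, 0.461 for Klf3, 0.468 for Klf2, 0.529 for Klf7, 0.595 for Klf4, 0.598 for Klf6, 0.603 for Klf13 and 0.805 for Klf10, and the interquartile range over the same genes was 0.405 to 0.694. Klf9 and Klf11 then still lay below the range, Klf10 lay above it, and the other 6 lay inside it.

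**Figure D3:**
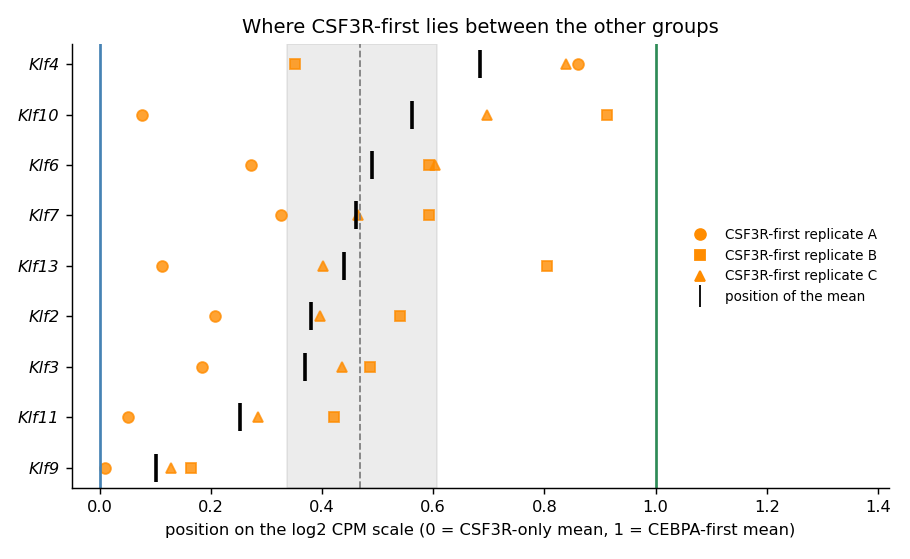
Place of CSF3R-first on the log2 CPM scale (horizontal axis, 0 = CSF3R-only mean, 1 = CEBPA-first mean) for each gene, as single replicates and their mean; the dashed line and grey band are the median and interquartile range over 11314 genes. The 3 Klf9 samples lie between 0.00976 and 0.164, and replicate A lies leftmost for every gene except Klf4.

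Levels between genes were compared per kilobase of exon. In CSF3R-only, Klf2 was highest at 136 ± 11.8 CPM per kb, followed by Klf6 (55.8 ± 3.94), Klf13 (31.7 ± 1.30), Klf10 (23.6 ± 1.51), Klf3 (16.9 ± 1.70), Klf7 (6.83 ± 0.466), Klf11 (3.91 ± 0.379), Klf9 (2.87 ± 0.488) and Klf4 (2.62 ± 0.219). Neighbours in this order had separate ranges except Klf11 with Klf9 and Klf9 with Klf4. In CSF3R-first, Klf2 was at 71.7 ± 21.2 and Klf6 at 33.4 ± 7.06 CPM per kb, and the ranges of Klf6 with Klf13 and of Klf13 with Klf10 overlapped, as did those of neighbours among the 4 lowest after Klf3, which were Klf7, Klf4, Klf11 and Klf9.

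In CEBPA-first the top of the order closed up. Klf2 was at 23.8 ± 4.48 CPM per kb, Klf6 at 19.1 ± 2.09, Klf13 at 17.9 ± 1.65 and Klf10 at 15.9 ± 1.92, each overlapping the next. Klf9 (6.13 ± 0.438) ranked 5, overlapping Klf3 (5.90 ± 0.924), and Klf4 (3.82 ± 0.217) ranked 7, above Klf7 (1.91 ± 0.253) and Klf11 (1.76 ± 0.237), which overlapped each other.

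The summed level of the 9 genes per kb was 280.6 ± 20.0, 174 ± 39.3 and 96.2 ± 10.5 CPM in the 3 groups. The share of Klf2 in this sum was 48.5 ± 0.953%, 40.8 ± 3.08% and 24.6 ± 1.96%. The share of Klf6 stayed at 19.9 ± 0.445%, 19.3 ± 1.60% and 19.9 ± 0.868%, and that of Klf10 was 8.43 ± 0.120%, 11.02 ± 0.568% and 16.5 ± 0.874%. Klf9 went from 1.03 ± 0.231% in CSF3R-only to 6.42 ± 0.680% in CEBPA-first. Without replicate A the CSF3R-first sum averaged 152.5 CPM per kb, with shares of 39.4% for Klf2, 19.35% for Klf6 and 11.3% for Klf10, an alternative added after the values were seen. With the longest transcript as the length, an alternative added after the values were seen, Klf3 ranked above Klf10 in CSF3R-only and Klf10 ranked 2 in CEBPA-first, while Klf2 stayed first in every group at 42.9%, 35.3% and 20.8% of the sum.

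**Figure D4:**
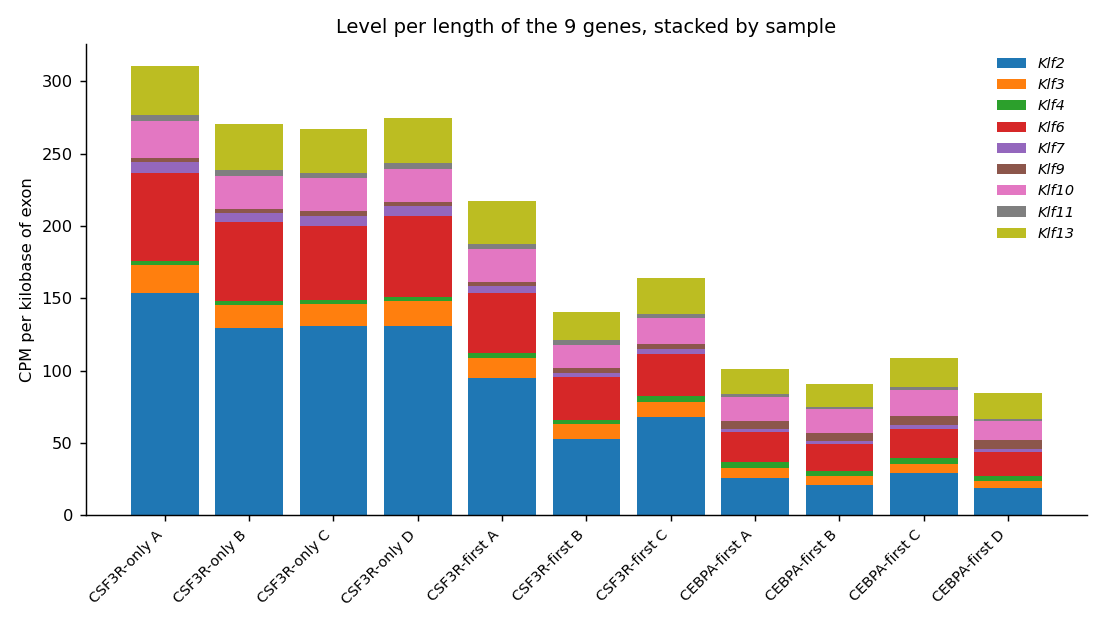
Stacked CPM per kilobase of exon (vertical axis, from 0) of the 9 genes in each of the 11 samples. The Klf2 block is 129.5 to 153.9 in CSF3R-only and 19.1 to 28.9 in CEBPA-first, and the summed height goes from 267.1 to 310.2 down to 84.6 to 108.3.

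The likeness of profiles was measured as the root mean square difference of centred log2 CPM over the 11 samples, which share their group structure. Among the members, Klf3 and Klf6 were most alike (0.1001), followed by Klf10 with Klf13 (0.169) and Klf6 with Klf7 (0.171), while Klf2 and Klf9 were least alike (1.62). Of 9039 genes searched, those near to each member were Grina and Nectin2 for Klf2 (0.0352 and 0.0677), Sirpa and Myo1f for Klf3 (0.0486 and 0.0609), Slc31a2 for Klf6 (0.0504), and Sgms1 and Pdlim7 for Klf7 (0.0732 and 0.0782). Grina, a membrane protein gene, was at 1132 ± 74.0, 601 ± 168 and 196 ± 32.7 CPM in the 3 groups, a profile within 0.0352 of that of Klf2.

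Sirpa, the myeloid receptor for CD47, was at 1483 ± 152, 960 ± 216 and 497.5 ± 66.5 CPM. The nearest genes were Depdc1b and Tbc1d14 for Klf4 (0.0928 and 0.0959), Sh3d19 and Nxpe3 for Klf9 (0.122 and 0.140), Ubl3 and Ostf1 for Klf10 (0.0571 and 0.0603), Cnnm2 and Pkd2 for Klf11 (0.0772 and 0.0820) and Borcs6 and Capns1 for Klf13 (0.0587 and 0.0639). Klf9 thus had the most distant nearest gene of the 9.

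Of 17 other genes of the SP/KLF family, 9 passed the filter, and Klf12, Klf14, Klf15, Klf17, Sp5, Sp6, Sp7 and Sp8 did not. In CEBPA-first against CSF3R-only, 1 of the 9 passed the threshold, where 27.0% of all genes did, and their median log2 fold change was 0.01. That gene was Klf1, the erythroid factor, at 25.4, 22.3 and 11.9 CPM on average in the 3 groups (log2 fold change -1.08, edgeR adjusted p = 0.0032). By the adjusted p alone Klf5 (-0.55) and Sp3 (-0.45) were also lower, and Klf16 (0.78), which recruits SIN3A like Klf9, and Sp2 (0.32) were higher. Sp1, the widely expressed founding member, had a log2 fold change of 0.01 (adjusted p = 0.87), Klf8 0.32, Sp4 -0.10 and Sp9 0.68, none of which passed.

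Several genes known to act upstream of Klf2 and Klf4 were lower in CEBPA-first, as Klf2 was and Klf4 was not. Of 8 genes of the ERK5, MEF2 and FOXO1 route, which is known to induce Klf2 and Klf4 in endothelium and lymphocytes, 3 passed the threshold, all lower, in CEBPA-first relative to CSF3R-only and 0 rose, with a median log2 fold change of -0.57; 19.0% of all genes were lower past the threshold. Mef2c, a MEF2 factor, fell most, from 70.0 to 19.9 CPM (log2 fold change -1.82), and Foxo1 (-1.17) and Mef2a (-1.05) also fell. Mapk7, which encodes ERK5, had -0.77 and passed by the adjusted p alone. Mef2d (0.15, edgeR adjusted p = 0.027) and Map2k5, the kinase gene upstream of ERK5 (0.13, adjusted p = 0.026), were higher by the adjusted p alone. In CSF3R-first against CSF3R-only 0 of the 8 passed the threshold (6.65% of all genes), and 3 were lower by the adjusted p alone, where 42.7% of all genes differed. Without CSF3R-first replicate A, 5 of the 8 were lower by the adjusted p, against 46.5% of all genes that differed.

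In the TGF-beta pathway, the route that induces Klf10 and Klf11, 4 of 11 tested genes fell and 0 rose in CEBPA-first against CSF3R-only, where 19.0% of all genes fell, with a median log2 fold change of -0.46. Smad3, a signal transducer of the pathway, went from 22.02 to 6.39 CPM (log2 fold change -1.79), and Skil (-1.51) and the receptor gene Tgfbr2 (-1.04) fell as well. Tgfb2 was not tested. In CSF3R-first, 1 of 11 (Smad3, -1.05) fell against CSF3R-only, where 6.65% of all genes passed in either direction, and the count was also 1 without CSF3R-first replicate A. Of 7 genes of the glucocorticoid response, the route known to induce Klf9, Dusp1 fell (53.1 to 7.67 CPM, log2 fold change -2.80) and 0 rose past the threshold. Nr3c1, the receptor gene itself, had -0.65, Tsc22d3 -0.86 and Fkbp5 0.28, and the median of this list was -0.65. Zbtb16, a transcription factor gene, went from 4.68 to 7.61 CPM (0.70, edgeR adjusted p = 0.011), and by the adjusted p 2 of the 7 (Fkbp5 and Zbtb16) were higher and 5 lower, against 35.4% and 36.6% of all genes.

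Partners of the KLF proteins differed by less than the fold threshold. Among 10 corepressor and coactivator genes 0 passed by edgeR in CEBPA-first against CSF3R-only (27.0% of all genes did). By the adjusted p alone 3 were higher and 6 lower, against 35.4% and 36.6% of all genes, and the values went from -0.49 for Ep300 to 0.79 for Hdac2. The CtBP genes Ctbp1 and Ctbp2 had 0.07 and -0.19, and the SIN3 genes Sin3a and Sin3b 0.32 and -0.38. Among 5 ubiquitin ligase genes 0 passed, and 3 were lower by the adjusted p alone, against the same shares of all genes, with Smurf1 at -0.85 and Wwp1, which targets Klf2, at 0.06.

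Of 12 genes known as targets of KLF2, KLF3 or KLF4 in other cells, 6 passed the threshold, all lower, in CEBPA-first relative to CSF3R-only and 0 rose, with a median log2 fold change of -0.94; 19.0% of all genes were lower past it. S1pr1, the egress receptor induced by KLF2 in T cells, went from 14.1 to 2.81 CPM (log2 fold change -2.33), and Cd14, the endotoxin coreceptor, from 240.4 to 42.0 (-2.52). Itgb7 (-1.18) and Mrc1 (-1.57) fell too. Retnla, with the largest fitted change, went from 0.396 CPM to 0.0213, a level below that of 3 counts. Lgals3 (-0.69) and Cdkn1a (-0.36) passed by the adjusted p alone, and Thbd, Klf8 and Nos3 did not.

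Immediate early genes, which respond within minutes to growth factors and to handling and count Klf2, Klf4, Klf6 and Klf10 among their wider class, fell in CEBPA-first cells, relative to CSF3R-only, for 9 of 11, where 19.0% of all genes fell, with a median log2 fold change of -1.61. Btg2 fell most, from 175 to 32.2 CPM (log2 fold change -2.44), and Egr1 (-0.44) and Ier3 (-0.94) did not reach the fold threshold. The summed level of the list was 2080 to 2675, 1079 to 1574 and 726 to 886 CPM in the 3 groups. Its part in the differences of the KLF genes was not tested.

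**Figure D5:**
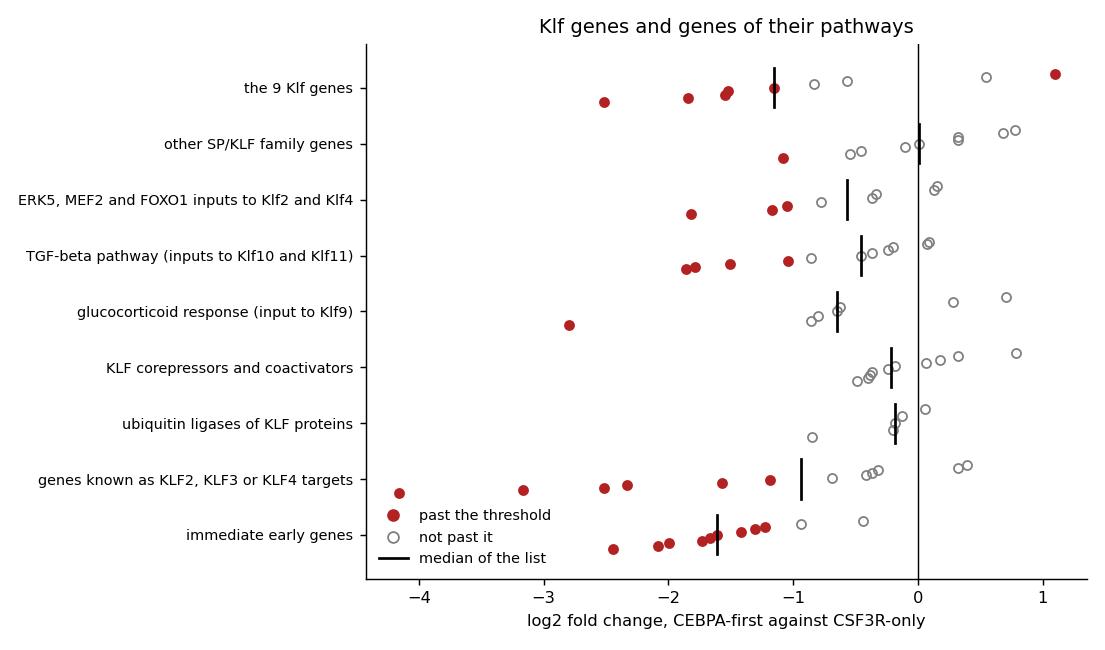
Log2 fold change of CEBPA-first against CSF3R-only (horizontal axis) for the tested genes of each list, with filled points past the threshold and a bar at the list's median. The median is -1.15 for the 9 Klf genes, 0.01 for the other SP/KLF genes and -1.61 for the immediate early genes.

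Markers of maturing cells mostly fell in CEBPA-first cells. Of the 9 KLF genes, 7 were also lower there by the adjusted p, and Klf4 and Klf9 were higher. In CEBPA-first against CSF3R-only, 9 of 10 neutrophil markers fell, where 19.0% of all genes did, and their summed level was 24392 to 29788, 13622 to 23663 (23663 in CSF3R-first replicate A) and 6137 to 8193 CPM in the 3 groups. Of the other lists, 7 of 10 monocyte and macrophage markers fell (3147 to 3961, 1765 to 3015 and 1065 to 1484 CPM in the same order), as did 6 of 6 megakaryocyte markers (879 to 1192, 338 to 520.4 and 112 to 155), 4 of 6 erythroid markers (163 to 247, 68.6 to 199 and 37.8 to 57.3) and 3 of 4 eosinophil markers (224 to 334, 54.6 to 126 and 27.3 to 33.7). Of 8 stem and progenitor markers 4 rose, where 8.07% of all genes did, and 3 fell (154 to 202, 84.9 to 143 and 109.7 to 126.9 CPM). In bulk RNA, fewer cells of a type and less RNA per cell cannot be told apart, and the part of these cell types in the KLF values was not tested.

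B cell, dendritic and stromal markers were near 0 or low. The 6 B cell markers summed to 3.26 to 6.81 CPM over all samples, with Pax5 at 0 in CSF3R-only, the 4 dendritic markers to 2.11 to 15.1, and the 4 endothelial and stromal markers to 2.48 to 6.61, with Cxcl12 at 0 in every group. By group the dendritic sums were 10.95 to 15.1, 7.95 to 11.6 and 2.11 to 2.59 CPM. Of 3 tested dendritic markers 2 fell in CEBPA-first against CSF3R-only (Itgax, log2 fold change -2.63, and Zbtb46, -2.35), where 19.0% of all genes did. Cd3e and Cd8a were at 0 in every group among 7 T and NK cell markers (46.0 to 136 CPM in sum). Nkg7, a cytotoxic granule gene, made up most of that sum, at 109 ± 24.7, 57.6 ± 14.7 and 48.8 ± 6.99 CPM, and fell in CEBPA-first against CSF3R-only (log2 fold change -1.15, edgeR adjusted p = 6.2e-05). The 4 tested T and NK cell markers went both ways in this comparison. Lck (1.30) and Klrb1c (3.09) rose past the threshold, and Cd3d fell with Nkg7, which is 2 higher and 2 lower, against 8.07% and 19.0% of all genes. Klrb1c and Cd3d averaged under 1 CPM in every group. The 5 mast cell and basophil markers summed to 941 to 2275 CPM, and 1 rose and 1 fell in CEBPA-first, against 8.07% and 19.0% of all genes.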

How the data were processed

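RNA sequencing libraries of 11 samples were made from low-input total RNA with the SMARTer kit. The authors deposited raw read counts per Ensembl gene, without normalization; the submitters' processing notes name STAR, the build mm10 and DESeq2, and trimming with Trimmomatic is described in the study's methods. The counting tool, its annotation and its handling of strand are not given in the sources used here. Gene symbols and positions were taken from GENCODE M21 (GRCm38), exon lengths from the union of its exons. Counts were filtered with filterByExpr, scaled by TMM and tested in one edgeR 4.0.16 quasi-likelihood fit of the 3 groups (R 4.3.3), with Benjamini-Hochberg adjustment over 15703 genes, two-sided. SE was taken as the absolute log2 fold change over the root of the F statistic, and 95% intervals use 8 residual degrees of freedom. The edgeR test uses more degrees of freedom, so an interval can include no change where the unadjusted p is under 0.05. Log2 CPM used a prior count of 2. On simulated counts (CEBPA-first against CSF3R-only) 200 of 15703 genes were changed, and 200 of 200 were recovered with 3 false calls. In the data 4244 genes passed in this comparison. Recovery with that many genes changed was not tested, and these numbers do not show how calls next to the fold threshold fare. Alternatives were DESeq2 1.42.0, other scaling, filters and thresholds, a replicate block, leaving out each library, and another gene length. Named were all 9 members, the 2 genes nearest to each in profile among genes averaging 3 or more in log2 CPM, the tested SP/KLF genes, and from each pathway list the genes that rose and fell most, with further genes chosen after their values were seen; some genes that this rule names are not reported here. The members and lists were chosen with earlier results of these data known.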

Additional observations from a re-analysis of the deposited data

Results flagged for a closer look

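Klf2 and Klf10 each had 1 CSF3R-only library far from the other 3 of its group. For Klf2, replicate A was at 284 CPM, the next library at 242 and the lowest at 239. For Klf10, replicate A was at 108 CPM, the next at 96.0 and the lowest at 94.96. Over the 18 groups of 4 libraries examined, 2 such libraries were found, where 0.9 are given by chance. Without CSF3R-only replicate A the same 6 members passed between CEBPA-first and CSF3R-only, and Klf10 had an adjusted p of 0.112 (edgeR) in CSF3R-first against CSF3R-only.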

How the results depend on the processing

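In CEBPA-first against CSF3R-only, 6 members passed in every alternative except the adjusted p alone (9) and glmTreat (4, without Klf9 and Klf11). In CSF3R-first against CSF3R-only, 0 became 1 (Klf2) with a replicate block and 7 by the adjusted p alone, and leaving out single libraries gave 0 to 1. In CEBPA-first against CSF3R-first, 2 became 1 (Klf2) with a replicate block or glmTreat and 7 by the adjusted p alone, and leaving out single libraries gave 1 to 4. Over the alternatives other than glmTreat and left-out libraries, Klf7 lay at -1.03 to -0.97, Klf3 at -1 to -0.92 and Klf9 at 0.97 to 1.02. Which of these 3 passed the fold threshold in this comparison therefore varied with the setting. Same-letter samples correlated at -0.107 to 0.362, with 7 of 10 pairs over 0.1, and the labels tie the letters to no animal or culture, so no pairing was assumed, though whether letters mark shared sets was not settled. With the block Klf2 came to -1.02 (adjusted p 0.000109) and Klf11 passed the adjusted p in CSF3R-first against CSF3R-only (0.0428). Of 486 alternative log2 fold changes of single members, glmTreat aside, 469 kept their call by the adjusted p, 14 lost it, 3 gained it and 0 changed sign; with the fold threshold 466 kept it, 7 lost it and 13 gained it. The cause was not tested. Klf10 in CSF3R-first against CSF3R-only lost its call in 10 alternatives, with adjusted p from 0.0584 to 0.207. By the longest transcript as the length, added after the data were seen, the ranks were 4 for Klf3 and 5 for Klf10 in CSF3R-only, and 5 for Klf3, 4 for Klf6, 6 for Klf9 and 2 for Klf10 in CEBPA-first. Over all genes the counts past the threshold were 4244, 1045 and 2016 in the 3 comparisons in the order above, against 11314, 6703 and 7578 by the adjusted p alone and 2495, 201 and 799 with glmTreat; at least 10 counts in every sample gave 566 and 1219 in the latter 2. Groups of 3 and 4 libraries limit the precision of all values.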
